A study of Mus musculus with 4 samples.

Results

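Colony-stimulating factor receptors and their feedback genes were examined in mouse neutrophils exposed to Aβ40, a form of the amyloid-beta peptide that is found in vessel walls in cerebral amyloid angiopathy. The members are the 8 rows of the deposited gene count table, of 54532 in all, whose symbol is Csf3r, Csf2ra, Csf2rb, Csf2rb2, Csf1r, Socs3, Cish or Jak2, and all 8 passed the filter on low counts, as did 13479 genes in all. The rule takes them by symbol and uses no measured value. RNA was sequenced from bone marrow neutrophils of wild-type mice, given either Aβ40 at 20 µg/ml for 4 h or DMSO, a common solvent. Each group held 2 libraries, named here Aβ40 1 and 2 and DMSO 1 and 2. The age, sex and number of the animals, the exposure time of the DMSO cells and the way the neutrophils were separated are not stated in the labels. Nor is it stated that the 2 libraries of a group are separate animals or cultures, so a p-value here covers only the spread between these libraries, and that spread may be technical. The series asks how Aβ40 induces neutrophil extracellular traps.

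Granulocyte colony-stimulating factor (G-CSF) drives the production and release of neutrophils and acts through a receptor made of paired chains of the Csf3r product. Granulocyte-macrophage colony-stimulating factor (GM-CSF), interleukin-3 and interleukin-5 each bind an alpha chain of their own, which joins a shared beta chain, the Csf2rb product. Mice carry a second beta chain gene, Csf2rb2, whose product serves interleukin-3. Macrophage colony-stimulating factor (M-CSF) acts through Csf1r, a receptor tyrosine kinase best known in monocytes and macrophages. Apart from Csf1r, these receptors have no kinase of their own and signal through Janus kinases such as Jak2, which phosphorylate STAT transcription factors. STATs in turn induce Socs3 and Cish, whose products bind the receptors or kinases and limit the signal, Socs3 being best known for G-CSF and Cish for the STAT5 branch.

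Csf2rb (ENSMUSG00000071713, mm10 chromosome 15, 78325752 to 78353847, plus strand) and Csf2rb2 (ENSMUSG00000071714, chromosome 15, 78282507 to 78305721, minus strand) lie next to each other and are near-copies, which bears on how their reads can be told apart. Over 2628 aligned coding bases of 1 GENCODE M21 transcript each, 95.2% were identical, and the longest identical run was 242 bases. The window of 90 bases with the most differences, within exon 5 of Csf2rb and exon 4 of Csf2rb2, differed at 16 positions, marked here by capitals:
Csf2rb (chr15:78338897-78338986, plus strand): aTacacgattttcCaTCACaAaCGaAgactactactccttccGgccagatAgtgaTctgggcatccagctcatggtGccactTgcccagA
Csf2rb2 (chr15:78294345-78294434, minus strand): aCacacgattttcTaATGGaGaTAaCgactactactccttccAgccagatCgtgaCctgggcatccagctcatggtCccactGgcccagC
In contrast, a window of the same size in exon 9 of Csf2rb and exon 8 of Csf2rb2 held no difference:
Csf2rb (chr15:78341658-78341747, plus strand) and Csf2rb2 (chr15:78291563-78291652, minus strand): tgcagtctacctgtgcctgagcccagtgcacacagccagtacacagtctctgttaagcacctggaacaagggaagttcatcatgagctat
Of all 50-base stretches in these transcripts, 18.4% of those of Csf2rb and 19.5% of those of Csf2rb2 also occurred in a transcript of another gene, nearly always in each other. At 100 bases these shares were 6.96% and 7.20%. No source used here gives the read length or the handling of reads with several positions, so the split between these 2 genes is uncertain.

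The other members differed in how far their reads can be placed. Csf2ra, Socs3 and Jak2 shared none of their 50-base stretches with another gene. Csf1r shared 17.7% with Hmgxb3, which overlaps its 3′ end on the other strand and was counted 38 and 51 times in the Aβ40 libraries and 46 and 45 times in the DMSO libraries. Cish shared 15.8%, mostly with the antisense gene Gm17041, which had 0 counts in all 4 libraries. Csf3r shared 11.5% at 50 bases, over 402 genes but mostly with AC105061.2, and 0.414% at 100 bases, all with AC105061.2. No source used here gives the strandedness, so reads of Csf1r and Cish cannot be separated with certainty from those of the overlapping genes.

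Both feedback genes held the spaced palindrome TTCNNNGAA, the core that STAT dimers are known to bind, near a RefSeq gene start. The motif was searched over 250 bases before and 50 after the start, where it reads the same on both strands, and capitals mark the matches in these 30-base stretches of GRCm38.p6:
Cish (chr9:107296654-107296683, plus strand): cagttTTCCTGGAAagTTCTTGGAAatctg
Socs3 (chr11:117969501-117969530, minus strand): gaaaccagccTTCTTAGAAgggaggggggg
Csf2rb2 (chr15:78305717-78305746, minus strand): gtgtccacaaTTCTGAGAAgcaagcaaagc
Cish held 2 matches, 1 of them to the narrower TTCCNGGAA, and Socs3 and Csf2rb2 held 1 each. Among 32851 promoters of this length, 8.30% held TTCNNNGAA and 1.15% held TTCCNGGAA, which is a subset of the first. No match was found in the windows of Csf3r, Csf2ra and Jak2. A match in these letters is not evidence of binding.

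Library totals ran from 17212264 to 19524125 counts, so that 1 count was worth 0.0523 to 0.0585 CPM (counts scaled to library size, here corrected by the trimmed mean of M-values, TMM). S100a8 and S100a9, calcium-binding proteins that fill the neutrophil cytosol, took 8.78% and 8.29% of counts with Aβ40 and 7.91% and 6.22% with DMSO, where DMSO 2 was the lowest. With these included, 11 mature neutrophil markers other than Csf3r summed to 101746 and 93255 CPM with Aβ40 and to 95007 and 66113 CPM with DMSO. Their log2 fold changes were positive for 6 and negative for 5, and edgeR called 0. An unadjusted p under 0.05 was reached by 1 of the 11, against 12.2% of all tested genes. That one was Mmp9, a granule protease, at 647 and 713 CPM with Aβ40 and 975 and 1011 CPM with DMSO. Itgam, an integrin chain of myeloid cells, was at 713 and 720 CPM with Aβ40 and 950 and 862 CPM with DMSO, so for both genes, as for Csf3r, the Aβ40 libraries lay below the DMSO libraries. These 2 genes are named after their values were seen. Of the 11 markers, both Aβ40 libraries lay below both DMSO libraries for 4, against 21.9% of all tested genes. They lay above for 2, S100a9 and Ly6g, the latter at 400 and 319 CPM with Aβ40 and 292 and 271 CPM with DMSO. Markers of other cells were also present, and those of B cells and eosinophils were above the DMSO libraries in both Aβ40 libraries. The 13 B cell markers summed to 1309 and 1319 CPM with Aβ40 and 583 and 667 CPM with DMSO, and the 10 eosinophil markers to 3684 and 3742 CPM with Aβ40 and 1687 and 1405 CPM with DMSO. Sums for dendritic cells were 1147 and 1343 CPM with Aβ40 and 854 and 867 CPM with DMSO, those for basophils and mast cells 382 and 393 CPM with Aβ40 and 393 and 322 CPM with DMSO, and those for erythroid cells 3575 and 3713 CPM with Aβ40 and 5099 and 2163 CPM with DMSO. Among markers of other cells, edgeR called 6 of 13 for B cells and 1 of 10 for eosinophils. It called 1 of 13 for dendritic cells (Ccr7) and 1 of 12 tested for T and NK cells (Gzmb). All of these were higher with Aβ40, and 0.126% of all tested genes were called. Of the 8 basophil and mast cell markers and the 9 erythroid markers, 0 were called. The part of these markers in the values of the receptor genes was not tested. In bulk samples fewer cells of a type and less RNA per cell cannot be told apart.

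Both feedback genes had lower levels than every receptor chain among the 8 genes. Levels between genes were compared per length, in the deposited FPKM (fragments scaled to gene length and to an effective library size). Csf3r had the highest level of the 8 in every library, at 124 and 113 FPKM with Aβ40 and 156 and 208 FPKM with DMSO. Its mean lay at percentile 97.3 of the tested genes. Csf2ra came second in every library, at 81.5 and 75.0 FPKM with Aβ40 and 82.2 and 149 FPKM with DMSO. Csf2rb at 41.8 and 47.6 FPKM with Aβ40 and 65.0 and 57.2 FPKM with DMSO, Csf1r at 39.4 and 41.4 FPKM with Aβ40 and 43.4 and 53.8 FPKM with DMSO, and Jak2 at 44.7 and 38.9 FPKM with Aβ40 and 43.1 and 46.6 FPKM with DMSO formed a middle group. The values of Jak2 overlapped those of Csf2rb and Csf1r with Aβ40 and those of Csf1r with DMSO, while Csf2rb lay above Csf1r in every library.

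Csf2rb2 was sixth in every library, at 18.8 and 23.3 FPKM with Aβ40 and 24.8 and 21.9 FPKM with DMSO. Socs3 was seventh, at 8.02 and 5.71 FPKM with Aβ40 and 6.22 and 7.55 FPKM with DMSO, and its mean lay at percentile 62.9 of the tested genes. Cish was last, at 0.582 and 0.999 FPKM with Aβ40 and 0.723 and 1.30 FPKM with DMSO, at percentile 21.9 of the tested genes. The steps between Jak2, Csf2rb2, Socs3 and Cish were all wider than the spread between libraries. The deposited gene lengths, 7277 bases for Csf2rb and 6419 for Cish, exceed those of their longest coding GENCODE M21 transcripts, 4900 and 2850 bases. The transcript lengths were then put in their place, a setting added after the values were seen. Csf2rb stood at 62.1 and 70.6 with Aβ40 and 96.5 and 85.0 with DMSO on the same scale, which put it above Csf2ra in DMSO 1. Jak2 stayed at 44.7 and 38.9 with Aβ40 and 43.1 and 46.6 with DMSO. Csf2rb thus lay above Jak2 in every library and left the middle group. Cish was still last at 1.31 and 2.25 with Aβ40 and 1.63 and 2.93 with DMSO.

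**Figure D1:**
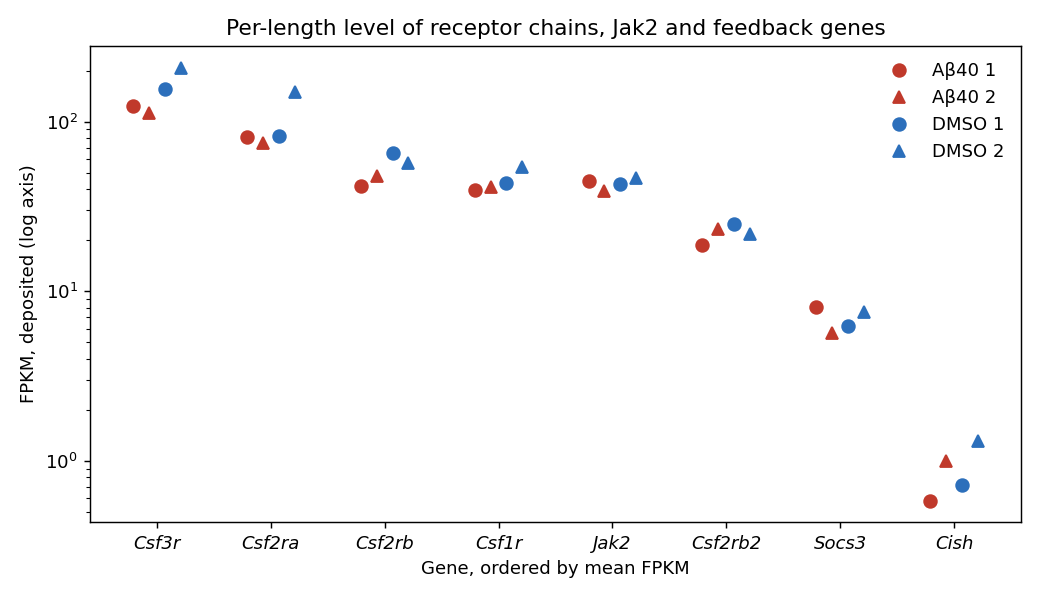
Deposited FPKM (log axis) of the 8 genes in each of the 4 libraries, ordered by their mean, with Aβ40 libraries in red and DMSO libraries in blue. Csf3r lies highest in every library, with 113 to 208 FPKM, and Cish lowest, with 0.582 to 1.30 FPKM.

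None of the 8 genes passed the test of Aβ40 against DMSO, although the fitted log2 fold changes of all the receptor chains among them were below 0. In edgeR's quasi-likelihood test, 0 of the 8 were called at a Benjamini-Hochberg adjusted p under 0.05, against 0.126% of the tested genes. All 17 genes called in that test were higher with Aβ40, and 0 were lower. DESeq2 and limma-voom called 0 of the 8 as well. At an unadjusted p under 0.05 there were 2 of the 8, Csf3r and Csf2rb, against 12.2% of tested genes in either direction and 5.72% lower with Aβ40. Both Aβ40 libraries lay below both DMSO libraries for 3 of the 8, Csf3r, Csf2rb and Csf1r, against 21.9% of the tested genes, and the groups overlapped for the other 5. The log2 fold change was negative for 7 of the 8, with a median of -0.30, where 48.9% of tested genes were negative and their median was 0.01.

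Csf3r (ENSMUSG00000028859, chromosome 4, 126024550 to 126044440), the G-CSF receptor, was at 455 and 412 CPM with Aβ40 and at 567 and 755 CPM with DMSO. The Aβ40 libraries were close together, and DMSO 2 was the highest of all. The means were 434 ± 30.3 CPM with Aβ40 and 661 ± 134 CPM with DMSO (SD, n = 2 each). The log2 fold change was -0.61 (SE 0.20) with a 95% confidence interval from -1.07 to -0.15 and an adjusted p = 0.334 (edgeR). On the linear scale Aβ40 was at 0.656 of DMSO, with bounds of 0.476 and 0.904. Without DMSO 1 the log2 fold change was -0.80, and without DMSO 2 it was -0.40. These fits take the lone DMSO library to vary as the Aβ40 pair does. That pair was the closer one, with a chi-square per degree of freedom of 15.6 against 51.4 for the DMSO pair. Only the fold changes of such fits are therefore given for single genes.

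Csf2ra (ENSMUSG00000059326, chromosome 19, 61224402 to 61228418), the GM-CSF alpha chain, was at 153 and 140 CPM with Aβ40 and at 153 and 276 CPM with DMSO. DMSO 1 thus lay among the Aβ40 libraries, and DMSO 2 alone was high. The log2 fold change was -0.55 (SE 0.26), with a 95% confidence interval from -1.14 to 0.05 and an adjusted p = 0.439 (edgeR). It was -0.91 without DMSO 1 and -0.07 without DMSO 2. Its size thus rested on DMSO 2.

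Csf2rb, the shared beta chain, was at 310 and 350 CPM with Aβ40 and at 475 and 418 CPM with DMSO. Here DMSO 1, not DMSO 2, was the highest library, and the groups did not overlap. The means were 330 ± 28.6 CPM with Aβ40 and 447 ± 39.9 CPM with DMSO (SD, n = 2 each). The log2 fold change was -0.44 (SE 0.18) with a 95% confidence interval from -0.85 to -0.03 and an adjusted p = 0.388 (edgeR). It was -0.54 without DMSO 2 and -0.35 without DMSO 1.

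Csf2rb2, the beta chain that serves interleukin-3 in mice, was at 90.7 and 112 CPM with Aβ40 and at 118 and 104 CPM with DMSO. Its groups overlapped, and the log2 fold change was -0.13 (SE 0.18), with a 95% confidence interval from -0.54 to 0.28. Within a library, the FPKM of Csf2rb was 2.22 and 2.04 times that of Csf2rb2 with Aβ40 and 2.62 and 2.62 times with DMSO. The ratio was thus lower in both Aβ40 libraries, given here without a test and with the reservation that the shared stretches shown above can move reads between the 2 genes. The FPKM of Csf2ra over that of Csf2rb was 1.95 and 1.58 with Aβ40 and 1.27 and 2.60 with DMSO, so the DMSO libraries lay on either side of the Aβ40 libraries. The size of both ratios rests on the deposited gene lengths. Transcript lengths raise Csf2rb by the same factor, 1.49, in every library, which leaves the order of the libraries unchanged. With them Csf2rb stood at 96.5 and Csf2ra at 82.2 in DMSO 1, so Csf2ra was no longer the higher of the pair there.

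Csf1r (ENSMUSG00000024621, chromosome 18, 61105572 to 61132149), the M-CSF receptor, was at 196 and 204 CPM with Aβ40 and at 213 and 264 CPM with DMSO. The groups did not overlap, by a margin smaller than the gap between the DMSO libraries. On the log2 scale the fold change was -0.25 (SE 0.18), with a 95% confidence interval from -0.66 to 0.16. Without DMSO 2 it was -0.10. The 12 other monocyte and macrophage markers did not follow Csf1r: 11 of them were above 0 on the log2 fold scale, with a median of 0.43. An unadjusted p under 0.05 was reached by 6 of the 12, against 12.2% of all tested genes, but edgeR called 0 after adjustment. The 12 markers summed to 1114 and 903 CPM with Aβ40 and 844 and 911 CPM with DMSO. Each of these markers had counts in all 4 libraries.

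Jak2 (ENSMUSG00000024789, chromosome 19, 29251828 to 29313080), the kinase that several of these receptors share, was the steadiest member. It was at 229 and 198 CPM with Aβ40 and at 218 and 236 CPM with DMSO, with a log2 fold change of -0.09 (SE 0.17) and a 95% confidence interval from -0.48 to 0.31. Its range over the 4 libraries was 0.25 on the log2 scale, against 0.38 to 1.12 for the other 7.

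Socs3 (ENSMUSG00000053113, chromosome 11, 117966079 to 117970047), the inhibitor induced by STAT3, was at 23.6 and 16.7 CPM with Aβ40 and at 18.1 and 21.9 CPM with DMSO. The DMSO libraries lay between the Aβ40 libraries. Its log2 fold change was 0.01 (SE 0.24), with a 95% confidence interval from -0.54 to 0.56, and its sign turned under 10 of 17 other settings. With all 4 libraries the lowest of these was -0.0545, with library size as the only scaling. On the linear scale the interval ran from 0.687 to 1.47 of DMSO.

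Cish (ENSMUSG00000032578, chromosome 9, 107296026 to 107302784), the inhibitor of the STAT5 branch, had the fewest reads. It was counted 65 and 124 times in the Aβ40 libraries and 87 and 156 times in the DMSO libraries, or 3.80 and 6.49 CPM with Aβ40 and 4.66 and 8.39 CPM with DMSO. The libraries numbered 1 were low and those numbered 2 high in both groups, although nothing in the labels ties the numbers to a shared animal or day. The log2 fold change was -0.34 (SE 0.39), with a 95% confidence interval from -1.23 to 0.55, or from 0.425 to 1.47 of DMSO on the linear scale. That interval includes no difference and is wide at this depth and spread. The log2 fold change of Cish was 0.14 without DMSO 2 and -0.80 without Aβ40 2.

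**Figure D2:**
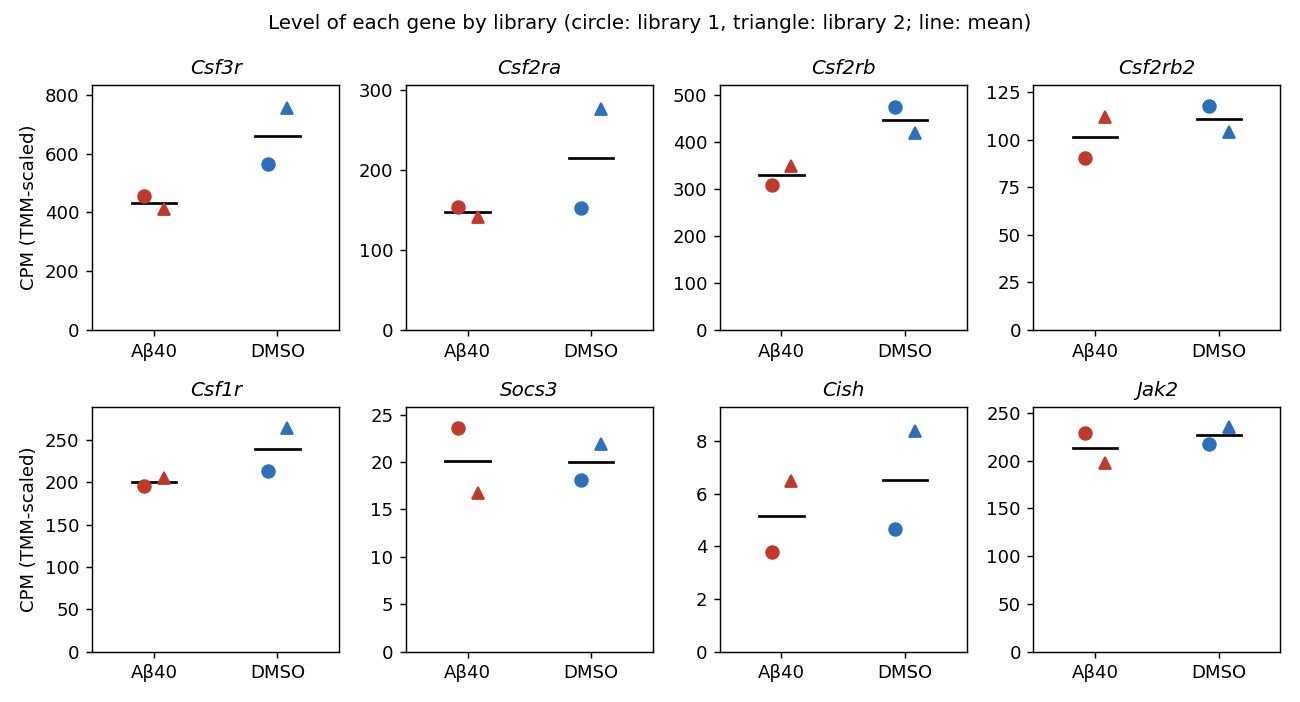
TMM-scaled CPM of each gene in the 2 Aβ40 libraries (red, left) and the 2 DMSO libraries (blue, right), with the group mean as a line and each vertical axis starting at 0. Csf3r, Csf2rb and Csf1r show no overlap between groups, while the DMSO mean of Csf2ra is set by DMSO 2 at 276 CPM.

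**Figure D3:**
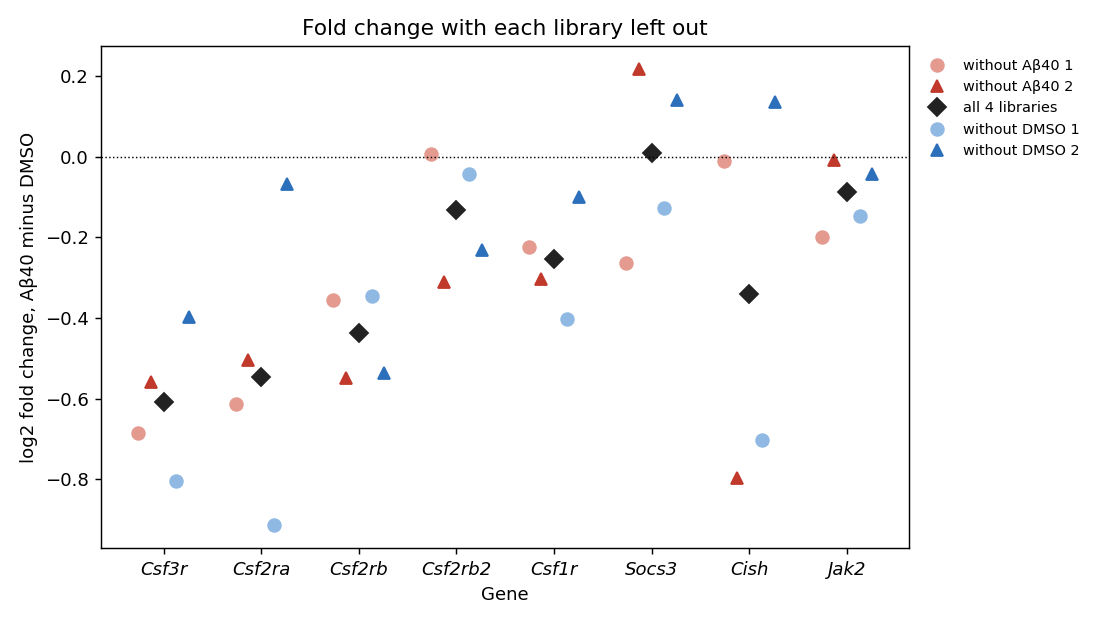
Log2 fold change (Aβ40 minus DMSO) of the 8 genes with all 4 libraries (black diamonds) and with each library left out in turn. Csf3r and Csf2rb are below 0 in all of these fits, Csf2ra runs from -0.91 to -0.07, and Socs3 and Cish lie on both sides of 0.

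Of the ligands of these receptors, Csf1, the gene of M-CSF, was the only one with enough reads to be tested. It was at 51.1 and 49.9 CPM with Aβ40 and at 52.2 and 59.3 CPM with DMSO, a log2 fold change of -0.14 (SE 0.17). Csf2, the gene of GM-CSF, had 1 and 2 counts with Aβ40 and 2 and 3 with DMSO. Csf3, the gene of G-CSF, had 0 and 0 counts with Aβ40 and 1 and 3 with DMSO. Il3, the gene of interleukin-3, and Il34, another ligand of Csf1r, had 0 counts in all libraries, which allows up to 0.157 to 0.175 CPM per library (3 counts, counting error only). Il5, the gene of interleukin-5, had 22 and 7 counts with Aβ40 and 0 and 3 with DMSO. All of these but Csf1 and Il5 were at or under the floor of 3 counts in each library.

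The alpha chains that partner the shared beta chain differed in direction. Il3ra, the interleukin-3 alpha chain, was at 23.9 and 37.6 CPM with Aβ40 and at 55.7 and 42.1 CPM with DMSO, a log2 fold change of -0.67 (SE 0.25, edgeR adjusted p = 0.360). Il5ra, the interleukin-5 alpha chain and a marker of eosinophils, was at 13.3 and 11.7 CPM with Aβ40 and at 5.90 and 6.88 CPM with DMSO, a log2 fold change of 0.97 (SE 0.26, edgeR adjusted p = 0.263). Neither passed in this fit. With a library left out, Il3ra was at -0.38 without Aβ40 1, -1.05 without Aβ40 2, -0.45 without DMSO 1 and -0.87 without DMSO 2. Without DMSO 2 Il5ra was at 1.07, and without DMSO 1 Il5ra was at 0.86. All 10 eosinophil markers, a list that includes Il5ra itself, were above 0 on the log2 fold scale. Their median was 1.20 and edgeR called 1 (Ear6, a ribonuclease). The part of the other markers in the value of Il5ra was not tested.

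Downstream of the receptors, edgeR called 0 of 10 other JAK and STAT genes, 0 of 21 genes listed as other inhibitors and 0 of 20 STAT-responsive genes in either direction, against 0.126% of tested genes. Their medians were -0.19, -0.13 and -0.02 on the log2 scale. An unadjusted p under 0.05 was reached by 2, 1 and 1 of them, against 12.2% of all tested genes in either direction. Stat3, which G-CSF activates, was at 133 and 145 CPM with Aβ40 and at 173 and 191 CPM with DMSO, a log2 fold change of -0.39 (SE 0.17). Stat4, best known in lymphocytes, was at 46.3 and 47.0 CPM with Aβ40 and at 35.9 and 28.6 CPM with DMSO, a log2 fold change of 0.53 (SE 0.19). The T and NK cell markers summed to 110 and 116 CPM with Aβ40 and 72.8 and 69.1 CPM with DMSO, and their part in the value of Stat4 was not tested. Without DMSO 1 Stat4 was at 0.71, and without DMSO 2 it was at 0.37. Stat6, the STAT of interleukin-4 signalling and among the most abundant of this list per length, was at -0.23 (SE 0.17).

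Among the inhibitors, the phosphatase genes Ptpn6 and Ptprc were the most abundant, at log2 fold changes of 0.02 (SE 0.18) and -0.03 (SE 0.20). Ptpn11, the phosphatase SHP2, is on this list although its product is not only an inhibitor. Ptpn11 was at 51.5 and 50.8 CPM with Aβ40 and at 63.5 and 71.2 CPM with DMSO, a log2 fold change of -0.40 (SE 0.17). Ptpn1, a phosphatase of Janus kinases, was at 86.8 and 76.5 CPM with Aβ40 and at 85.3 and 138 CPM with DMSO. As for Csf2ra, DMSO 2 alone was high. The log2 fold change of Ptpn1 was -0.45 with all libraries, -0.76 without DMSO 1 and -0.08 without DMSO 2.

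Among STAT-responsive genes, Bcl6, a transcriptional repressor, had the smallest p-value. It was at 83.5 and 98.5 CPM with Aβ40 and at 174 and 125 CPM with DMSO, a log2 fold change of -0.72 (SE 0.20, edgeR adjusted p = 0.290). Among the fits of all 4 libraries with no block it passed without a filter on low counts (edgeR adjusted p = 0.0384). Without DMSO 2 it was at -0.94, and without DMSO 1 it was at -0.46. Cebpb, a transcription factor of emergency granulopoiesis, was at 219 and 302 CPM with Aβ40 and at 538 and 287 CPM with DMSO, where DMSO 1 alone was high. Its log2 fold change was -0.66 (SE 0.29). It was -1.06 without DMSO 2, -0.14 without DMSO 1 and -0.45 without Aβ40 1, so its size rested on DMSO 1. Mcl1, a survival gene of neutrophils and the most abundant of the list, was at 1451 and 1391 CPM with Aβ40 and at 1406 and 1365 CPM with DMSO, a log2 fold change of 0.04 (SE 0.19).

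**Figure D4:**
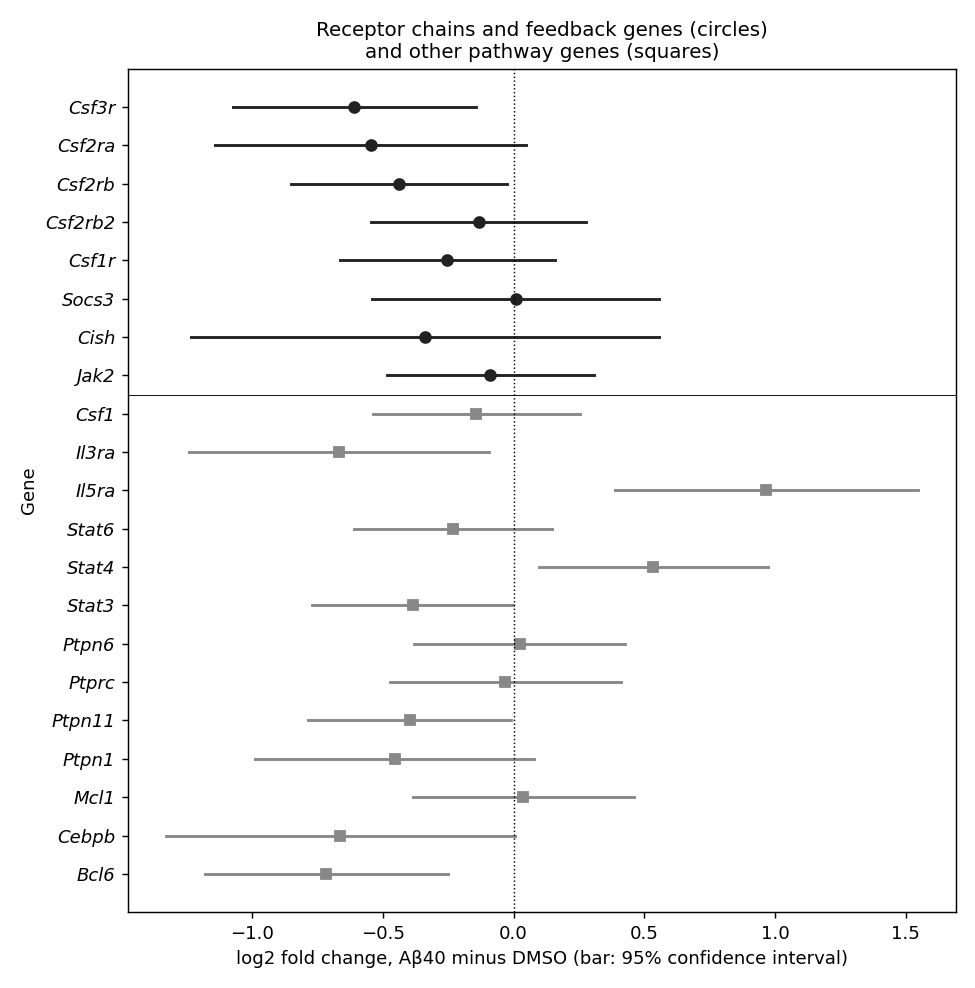
Log2 fold change (Aβ40 minus DMSO) with its 95% confidence interval for the 8 receptor and feedback genes (black circles) and for the other tested pathway genes named in the text (grey squares). Csf3r at -0.61 and Csf2rb at -0.44 have intervals that end below 0 before adjustment over all genes, and Il5ra at 0.97 lies farthest above 0.

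The genes whose pattern over the 4 libraries was most like that of Csf3r were Slc11a1, Ppip5k1 and Nf1. Likeness was the root mean square difference of log2 CPM, each gene centred on its own mean, over 8724 protein-coding genes that averaged 5 CPM or more. Slc11a1, a metal transporter of phagocytes, lay at a distance of 0.018, Ppip5k1, an inositol phosphate kinase, at 0.029, and Nf1, a negative regulator of Ras, at 0.029. Slc11a1 was at 94.2 and 88.2 CPM with Aβ40 and at 119 and 157 CPM with DMSO. Without DMSO 1 its log2 fold change was -0.79 and that of Nf1 -0.80, and without DMSO 2 they were -0.39 and -0.44. These genes were picked for their likeness to Csf3r in the same 4 libraries. Their values therefore had to follow those of Csf3r and lend it no support. A looser likeness was common over these 4 libraries: 848 of the 8724 genes lay within 0.2 of Csf3r (9.73% with Csf3r itself counted). Of the other members Csf2ra, at 0.165, and Csf1r, at 0.193, lay within that distance, and Csf2rb, Csf2rb2, Jak2, Socs3 and Cish lay outside it, at 0.252 to 0.375.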

How the data were processed

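The 4 RNA-seq libraries, 2 of neutrophils given Aβ40 and 2 of neutrophils given DMSO, were grouped by their titles and treatment labels. RNA came from a Qiagen kit and libraries from an Illumina kit, per the labels' protocols. HISAT2 2.0.5, featureCounts 1.5.0-p3 and the build mm10 appear in the submitters' processing notes, with no role given. The authors deposited raw counts per gene, used as they are, and FPKM. The deposited FPKM equal counts over gene length and 1 effective library size per library, within 0.01% for every gene with a value above 0.

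The counts were fitted with edgeR 4.0.16 in R 4.3.3: filterByExpr left 13479 of 54532 genes, sizes were scaled by TMM, and Aβ40 was compared with DMSO by the quasi-likelihood test (2-sided, intercept and group), with Benjamini-Hochberg adjustment over all tested genes. There were 2 residual and 6.88 prior degrees of freedom, and a common biological coefficient of variation of 0.210. Fold changes (log2) are Aβ40 minus DMSO, and standard errors and 95% intervals come from the same fit. The CPM use the TMM-scaled sizes, and library totals ran from 17212264 to 19524125. The pipeline was also run on counts simulated with the same spread in both groups, so that run cannot check the unequal spread of the groups. Within a group the libraries differed by far more than sampling noise (chi-square per degree of freedom 15.6 for Aβ40 and 51.4 for DMSO). Sequences were read from RefSeq promoters (6 of the 8 genes matched) and GENCODE M21 transcripts and aligned with Biopython 1.88. Coordinates of genes are those deposited. Alternatives covered scaling, filters, DESeq2 1.42.0, limma 3.58.1 (voom, and log2(FPKM + 1) or log2(FPKM + 0.1)), the replicate number as a block and each library left out.

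The members, the 5 pathway lists and the 8 cell marker lists were chosen with earlier results of these data known, so no list was tested. All members were named. From each pathway list the rule took called genes, the 2 with the highest FPKM and the 2 with the smallest p, and all ligands and partner chains, and it took the 3 protein-coding genes with a pattern most like Csf3r, leaving out predicted genes. A gene that the rule also took is not reported here.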

Additional observations from a re-analysis of the deposited data

How the results depend on the processing

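The 8 receptor and feedback genes gave 0 calls under every setting run with all 4 libraries, and 0 to 2 with a library left out. The count over all genes was 17 in the edgeR quasi-likelihood test, 255 without a filter, 129 with DESeq2, 221 with edgeR's likelihood ratio test, 0 with limma on log2(FPKM + 1), 0 with limma on log2(FPKM + 0.1), and 0 to 1276 with a library left out (1276 without DMSO 1, 1024 without DMSO 2, 0 without either Aβ40 library). At an unadjusted p under 0.05 the limma fits on FPKM gave 1565 and 1545 genes, and the fits without Aβ40 1 and Aβ40 2 gave 411 and 614. The causes were not tested. With the replicate number as a block the count over all genes was 27. The deviations of same-numbered libraries were only weakly related, with a negative sign (correlation -0.187 over genes). A block on the crossed numbers, added after seeing the data, gave 721 calls over all genes. It gave 0 calls among the 8 and 5 among the other named genes (Il3ra, Il5ra, Cebpb, Bcl6 and Slc11a1).

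Csf3r, Csf2ra, Csf2rb, Csf1r and Jak2 kept a negative log2 fold change under all 17 settings. Socs3, at 0.00816, was at -0.00139 with median-ratio scaling, -0.0545 with library size only, -0.00621 with DESeq2, -0.0117 with limma-voom, -0.0153 with limma on log2(FPKM + 1), -0.0189 with limma on log2(FPKM + 0.1), -0.00518 with the replicate block and -0.00421 with the crossed block. With a library left out it ran from -0.264 to 0.218 and was -0.128 without DMSO 1, Cish ran from -0.797 to 0.135 and Csf2rb2 from -0.312 to 0.0073. With library size only, Ptpn6 was at -0.0224 and Mcl1 at -0.0140. With a library left out, Ptpn6 ran from -0.0692 to 0.107 (-0.0416 without Aβ40 2) and Ptprc from -0.159 to 0.0642. Leaving out a library leaves a single one in its group, which is taken to vary like the other pair. The Aβ40 pair was the closer one (chi-square per degree of freedom 15.6, against 51.4 for DMSO). Calls in the fits without a DMSO library therefore rest on the smaller spread. Depth limits the ligand genes with few counts, Csf2, Csf3, Il3, Il5 and Il34.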
